A study of Homo sapiens with 12 samples.

Results

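HLF is a human hepatocellular carcinoma line, and the comparison described here is HLF cells given 20 mM lactate for 24 h against HLF controls. It takes all 4 HLF libraries of the 12 in the series by their cell line and treatment labels: controls 1 and 2 and lactate libraries 1 and 2. The other libraries come from the lines SNU475 and PLC/PRF/5 under the same design, again 2 control and 2 lactate libraries each. The treatment label names lactate and the protocol adds lactic acid in brackets, so the form supplied is not certain, and neither the pH of the medium nor any addition to the control cultures is given in the sources used here. Whether the 2 libraries of a group stem from separate cultures is not in the labels, and the spread behind every p-value may therefore be technical. HLF is an established line, and each group is a model of that line alone.

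Lactate is the end product of glycolysis, made from pyruvate by lactate dehydrogenase, and it crosses the plasma membrane together with a proton through monocarboxylate transporters. Inside the cell it can be oxidised back to pyruvate, whose entry into mitochondrial metabolism is held back by the pyruvate dehydrogenase kinases. Lactate can also be attached to lysines of histones as a lactyl mark, and the study's title places such a mark on histone H4 in a loop that acts back on glycolysis. The comparison therefore asks which transcripts of HLF differ after a day in lactate, the glycolytic ones among them.

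The HLF libraries held 21781924 and 18326577 counts for controls 1 and 2, and 21082224 and 20691987 counts for lactate 1 and 2. Control 1 stood apart. Its mitochondrially encoded share was 9.52% of counts, against 3.39% in control 2, 5.49% in lactate 1 and 3.93% in lactate 2, and the shares of the 2 groups overlapped (exact permutation test, two-sided, p = 1, where 2 against 2 can reach no less than 0.333). Across genes, lactate 2 was about as close to control 2 as to lactate 1: the chi-square per degree of freedom was 15.7 against 23.9, the Pearson r of log2 CPM 0.981 for both, and the SD of log2 differences 0.53 against 0.51. The 2 controls were farther apart on each measure (83, 0.974 and 0.62). The difference between conditions also followed gene length. Over 12272 genes averaging 2 CPM or more (CPM are counts over scaled library size), the log2 fold change was related to effective length with a Spearman rho of 0.383, and the difference of control 2 from control 1 with one of 0.495. Genes at an unadjusted p under 0.05 had a median effective length of 3471 bases where higher with lactate and 1452 bases where lower. For this reason many values are given below also without control 1, or after each library's length trend was removed.

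In the 4 libraries some mesenchymal markers were high and most hepatocyte markers at or near 0, against the liver origin of the line. The hepatocyte genes ALB, APOA1, APOA2, APOB, TTR and HNF4A stood at 0 to 0.45 TPM (a library-scaled level per transcript length) in the 4 libraries, and 8 hepatocyte markers summed to 4.27 to 6.79 TPM. VIM, the mesenchymal filament vimentin, stood at 4124 to 4408 TPM and the matrix protein gene SPARC at 1755 to 2383 TPM. CDH2 stood at 117 to 205 TPM and FN1 at 138 to 222 TPM, but ZEB1 at 3 to 8.77 TPM. The mesenchymal genes SNAI2, TWIST2 and PRRX1 were too sparse to test. The simple-epithelial keratins KRT8 and KRT18 stood between 1814 and 2618 TPM, whereas the adhesion genes CDH1 and EPCAM did not exceed 1.37 TPM. Of the leukocyte markers, PTPRC was listed at 0 in the 4 libraries and CD14 reached at most 1.37 TPM, whereas CD68, a lysosomal glycoprotein of macrophages, stood at 141 to 161 TPM and made up most of a leukocyte sum of 142 to 162 TPM. The 3 endothelial markers summed to at most 0.13 TPM.

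With all 4 libraries, edgeR's quasi-likelihood test called 1 of 15110 tested genes at an adjusted p under 0.05 (0.00662%). That gene, ENSG00000259171, had 0 counts in both controls and 101 counts with lactate, 2.99 and 1.69 CPM in lactate 1 and 2. Against a floor of 3 counts over the controls it rose at least 30.3-fold (adjusted p = 0.0404, edgeR). GENCODE 29 lists it as a protein-coding gene on chromosome 14 at 20684587 to 20700576 (GRCh38), overlapping ANG and RNASE4 on the same strand, so its reads cannot be told apart from theirs with certainty. ANG, which encodes the ribonuclease angiogenin, had 20.2 and 7.11 CPM in the controls and 19.6 and 12.6 CPM with lactate. RNASE4, another secreted ribonuclease, had 13 and 4.99 CPM against 20.8 and 11.3 CPM. The called gene's adjusted p ran from 1.09e-09 to 0.632 over 13 alternative fits, 8 of which called it.

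At an unadjusted p under 0.05 there were 1619 genes (10.7%), against 756 expected if no gene differed, 877 of them higher (5.8%) and 742 lower (4.91%). The fit that pairs libraries by their replicate number, which has 1 residual degree of freedom, called 97 genes (0.642%), 67 higher and 30 lower. In 95 of these 97 both lactate libraries lay on one side of both controls, which held for 43.7% of all tested genes. Genes called on these same libraries tend to separate in this way, so the share only describes them. DESeq2 called 54 genes, 44 of them among the 97. Without control 1 the unpaired test called 448 genes (2.82%), 319 of them higher, with the lone control assumed to vary like the lactate group. After the length trend was removed it called 0, with 947 genes higher (6.27%) and 788 lower (5.22%) at an unadjusted p under 0.05.

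**Figure D1:**
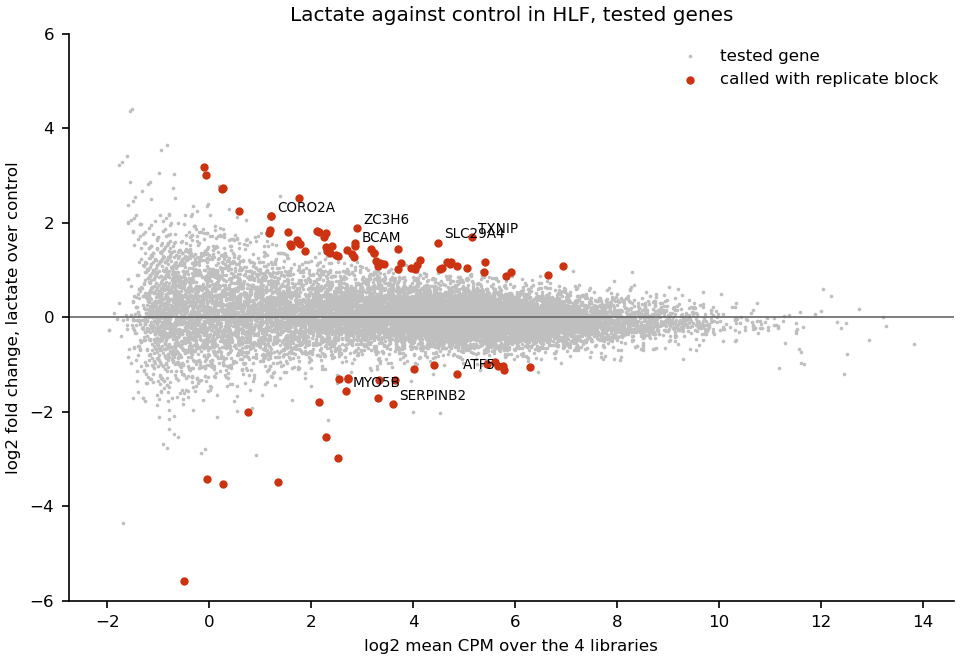
Log2 fold change with lactate (y axis) against the log2 mean CPM of the 4 HLF libraries (x axis), 1 point per tested gene. Red points are the 87 genes called with the replicate block that have counts in both groups, and they lie at or beyond the upper and lower edges of the grey cloud at most levels; genes with an empty group are left out.

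The protein-coding genes with the smallest p, 12 in each direction, were taken from those that averaged 2 CPM or more and whose groups did not overlap. Their adjusted p lay between 0.053 and 0.155 in the unpaired test, so none of the 24 passed it. With the replicate block 22 of the 24 were called, all 12 higher genes and 10 of the 12 lower genes (0.642% of all genes). The block refits the same libraries, so a high share among genes picked by their p is no further support. All 24 kept their direction when any 1 library was left out, which follows from choosing genes whose groups did not overlap. They also kept it when the length trend was removed. In 21 of the 24, lactate 1 lay farther from the control mean than lactate 2. Being chosen for separation, these genes are described and are no test of the separation.

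The 12 higher genes have varied known roles. SLC29A4, which encodes the plasma membrane monoamine transporter, went from 13.1 and 9.29 CPM in the controls to 37.3 and 29.8 CPM with lactate, a log2 fold change of 1.58 ± 0.24 (SE; adjusted p = 0.053, edgeR, and 0.00234 with the block, in a range of 3.60e-09 to 0.458 over the alternatives). The lower of its lactate libraries was still above the higher control by more than the controls differed. C1QL4, a secreted protein of the C1q family, went from 7.55 and 6.42 to 19.9 and 18.3 CPM (1.45 ± 0.23), again with no overlap. ZC3H6, a zinc finger protein gene, had 2.72 and 3.66 CPM in the controls and 14.7 and 8.86 CPM with lactate (1.89 ± 0.32).

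Further down this group, GAB2, a docking adaptor of receptor tyrosine kinase signalling, had 9.77 and 11.5 CPM in the controls and 24.8 and 21.3 CPM with lactate (1.11 ± 0.23). KREMEN1, a receptor for the Wnt inhibitor Dickkopf, had 19.4 and 17.7 against 45.2 and 34 CPM (1.09 ± 0.22). BCAM, a laminin receptor, had 2.92 and 4.62 against 12.6 and 8.95 CPM (1.51 ± 0.31). In each of the 3 the groups were separated by more than the spread within either group. The giant cadherin gene FAT4 had 10.1 and 11 against 29.8 and 19.1 CPM (1.21 ± 0.25, and 0.88 after the length trend was removed). CORO2A, a coronin, had the largest fold of the 12 (2.14 ± 0.44) but the lowest level, from 1.01 and 0.69 to 3.54 and 3.99 CPM. SEL1L3 had a log2 fold change of 1.16 ± 0.22, and TXNIP and MXI1 are described with their groups below.

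The 12 lower genes were led by 2 serine protease inhibitors of the same clade. SERPINB2, plasminogen activator inhibitor 2, went from 24.2 and 13.7 CPM in the controls to 5.71 and 4.97 CPM with lactate, a log2 fold change of -1.83 ± 0.28 (SE; adjusted p = 0.053, edgeR, and 0.00234 with the block, in a range of 6.82e-15 to 0.734 over the alternatives). SERPINB8 went from 19.8 and 15.8 to 5.98 and 8.25 CPM (-1.32 ± 0.25). For SERPINB2 control 1 was the highest library and both lactate libraries were alike, while SERPINB8 had similar controls. MYO5B, a myosin motor of recycling endosomes, had 9.87 and 9.34 CPM in the controls and 2.12 and 4.36 CPM with lactate (-1.57 ± 0.34).

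The other lower genes have varied known roles. SRPRB, the membrane anchor of the signal recognition particle receptor, had 89.3 and 61.7 CPM in the controls and 33.7 and 35.8 CPM with lactate (-1.12 ± 0.22). FNTB, the beta subunit of protein farnesyltransferase, had 13.9 and 10.7 against 5.11 and 6.24 CPM (-1.12 ± 0.26), and SLC5A6, the sodium-dependent multivitamin transporter, 114 and 86.2 against 47.9 and 57.5 CPM (-0.93 ± 0.22). These last 2 genes were the ones not called with the block (adjusted p = 0.0527 and 0.0542; ranges over the alternatives 1.90e-04 to 1 and 4.07e-06 to 1). PRKAR1B, a regulatory subunit of protein kinase A, went from 9.36 and 9.5 to 2.9 and 4.74 CPM (-1.3 ± 0.31), and the dehydrogenase gene DHRS9 from 17.7 and 10.9 to 5.57 and 5.81 CPM (-1.33 ± 0.28). LANCL2 (-1 ± 0.22), ST7 (-1.09 ± 0.24) and the histone gene H2AC6 (-0.99 ± 0.23, and -0.64 without control 1) had both lactate libraries below both controls, by close to 1 on the log2 scale.

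**Figure D2:**
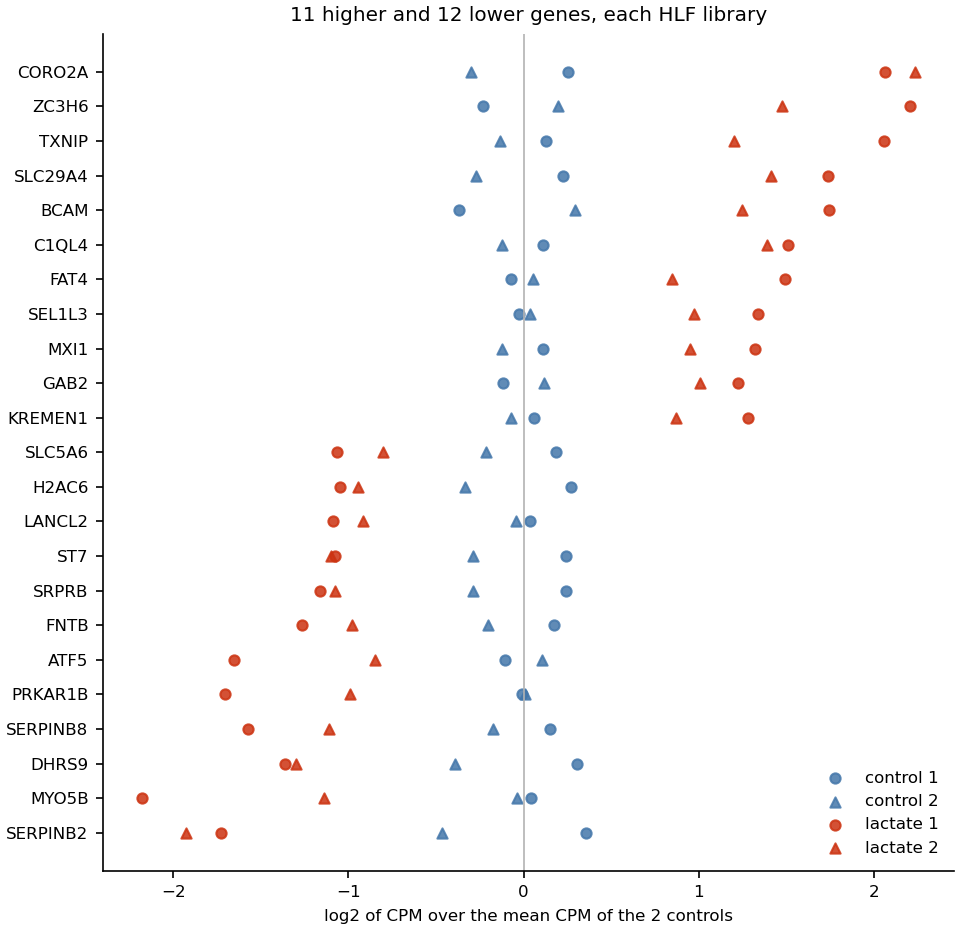
CPM of each HLF library over the mean of the 2 controls, on a log2 scale (x axis), for 11 of the 12 higher and the 12 lower genes (y axis); colour gives the treatment and shape the replicate number. All 46 lactate points lie beyond both controls of their gene, as the choice of genes requires, and the lactate 1 circle is the outer one for 20 of the 23 genes drawn.

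TXNIP and ARRDC4 are the best known targets of MondoA, a transcription factor that senses glucose phosphates and binds pairs of E-box-like elements. TXNIP, which encodes an inhibitor of thioredoxin and of glucose uptake, stood at 18.5 and 15.4 CPM in the controls and at 70.2 and 38.8 CPM with lactate. Its log2 fold change was 1.69 ± 0.28 (SE; adjusted p = 0.0968, edgeR, and 0.00234 with the block, in a range of 2.21e-10 to 0.57 over the alternatives). The lactate libraries differed from each other more than the controls did, but the lower one was still well above both controls. ARRDC4, its paralog, had 1.26 and 3.45 CPM in the controls and 5.89 and 4.69 CPM with lactate (1.17 ± 0.43, adjusted p = 0.348, edgeR). Without control 1 the value of ARRDC4 was 0.63. ARRDC3 had 40.9 and 34.8 against 73.2 and 42.1 CPM (0.61 ± 0.25). The other tested members of the list of 10 MondoA and ChREBP factors and targets had an unadjusted p of 0.05 or more, and the median of the list was 0.10, beside -0.00 for all tested genes. Without control 1 that median was -0.00 and 5 of the 10 were positive. Without lactate 1 ARRDC3 was at 0.16.

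The upstream regions of these 2 genes are shown because both genes are known MondoA targets, and E-box-like letters in them can be read off. Both are RefSeq sequences of GRCh38.p14, the 250 bases before the annotated start, 5′ to 3′ on the gene's strand, with matches to the motifs searched in capitals. For TXNIP the region is chr1:145996580-145996829 on the minus strand, and for ARRDC4 it is chr15:97960453-97960702 on the plus strand.
TXNIP: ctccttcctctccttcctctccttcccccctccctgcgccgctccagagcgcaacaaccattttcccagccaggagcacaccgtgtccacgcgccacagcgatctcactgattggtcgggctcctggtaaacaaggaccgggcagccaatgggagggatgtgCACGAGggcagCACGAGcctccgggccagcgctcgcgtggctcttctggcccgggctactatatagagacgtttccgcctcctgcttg
ARRDC4: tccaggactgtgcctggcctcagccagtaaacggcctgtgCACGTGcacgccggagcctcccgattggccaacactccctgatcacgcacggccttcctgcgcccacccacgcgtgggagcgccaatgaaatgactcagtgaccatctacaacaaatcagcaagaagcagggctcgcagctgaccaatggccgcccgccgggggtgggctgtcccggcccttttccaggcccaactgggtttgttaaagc
The TXNIP region holds 2 elements CACGAG spaced by 5 bases, starting 88 bases before the start, which match the searched pair of 2 elements CACGNG at that spacing. Of 35116 RefSeq promoter windows of 300 bases, 20 (0.057%) hold that pair on either strand. The ARRDC4 region holds the palindromic E-box CACGTG 210 bases before the start, as do 2548 of the windows (7.26%), and the pair was not found in its window. These are matches of letters only. A further RefSeq start of TXNIP had no match.

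Lactate and pyruvate handling was marked by the pyruvate dehydrogenase kinases, which phosphorylate and shut the enzyme that passes pyruvate to the citric acid cycle. PDK1 had 14.7 and 15.4 CPM in the controls and 33.5 and 28.1 CPM with lactate, a log2 fold change of 1.03 ± 0.22 (SE; adjusted p = 0.11, edgeR, and 0.0319 with the block, in a range of 7.41e-04 to 1 over the alternatives). PDK3 had 7.7 and 5.04 against 14.8 and 12.1 CPM (1.08 ± 0.27; adjusted p = 0.167, edgeR, and 0.0453 with the block, in a range of 1.69e-04 to 1). For both kinases the groups lay further apart than the libraries within either. PDK4 was barely present, with 3 control and 45 lactate counts, a ratio of 13.5 with a 95% exact counting interval of 4.33 to 67.8. That interval covers the error of counting pooled reads only and leaves out the spread between libraries. The log2 fold change of PDK4, 3.65 ± 0.89, did not pass the test (adjusted p = 0.157, edgeR). PDK2 had 23.9 and 19.2 against 26.5 and 23.1 CPM, with overlapping groups.

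The dehydrogenases and transporters that make and move lactate differed by less. LDHA, the subunit that favours lactate formation, had 3397 and 2529.7 CPM in the controls and 3160.1 and 3267 CPM with lactate (0.12, adjusted p = 0.87, edgeR). LDHB, the subunit of oxidative tissues, had 328 and 234 against 231 and 245 CPM (-0.24, adjusted p = 0.705). The importer gene SLC16A1 (MCT1) had 165 and 159.6 against 148 and 132 CPM (-0.21), and the exporter gene SLC16A3 (MCT4) 259 and 182 against 265 and 297 CPM (0.35). None of these 4 genes passed the test, and the groups of LDHA and LDHB overlapped, while both lactate libraries lay below both controls for SLC16A1 and above them for SLC16A3. HCAR1, the lactate receptor, was too sparse to test, with 9 control and 18 lactate counts. Of the 18 tested genes of the list, 4 had an unadjusted p under 0.05 and were higher (PDK1, PDK3, PDK4 and LDHD, a mitochondrial lactate dehydrogenase that acts on the D form) and 0 were lower, beside 5.8% and 4.91% of all genes, and the median was 0.09.

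Among 19 tested glycolysis genes, 4 were higher at an unadjusted p under 0.05 and 0 lower, beside 5.8% and 4.91% of all genes, and none was called. HK2, an inducible hexokinase, had 60.4 and 73.5 CPM in the controls and 119 and 101 CPM with lactate (0.72 ± 0.21). PGK1, a kinase of the pay-off phase, had 969 and 775 against 1204 and 1244 CPM (0.49 ± 0.19), and ENO2 114 and 81.9 against 157 and 126 CPM (0.53 ± 0.22). In these genes both lactate libraries were above both controls. The scarce aldolase gene ALDOC had 1.91 and 0.955 against 3.73 and 3.61 CPM (1.35 ± 0.43). In 8 of the 19 both lactate libraries were above both controls and in 0 below them, beside 21.6% and 22.1% of all genes. The abundant ENO1 and PKM did not separate. ENO1 had 5972 and 4632 against 4796 and 5169 CPM (-0.09) and PKM 3434 and 2688 against 2691 and 2952 CPM (-0.12). The glucose transporter gene SLC2A1 had 457 and 248 CPM in the controls and 441 and 361 CPM with lactate (0.19), so that the answer depends on the control. The median of the list was 0.16, and lay between -0.06 and 0.31 with any 1 library removed.

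**Figure D3:**
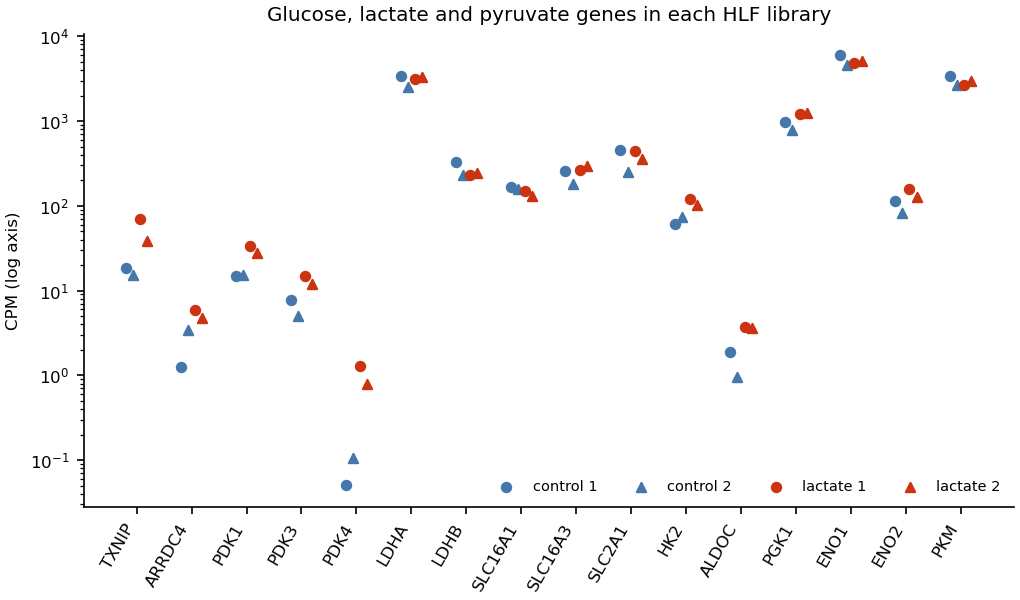
CPM on a log axis (y) of 16 genes of glucose, lactate and pyruvate metabolism (x) in each HLF library; colour gives the treatment and shape the replicate number. TXNIP, ARRDC4, PDK1, PDK3, PDK4, SLC16A3, HK2, ALDOC, PGK1 and ENO2 are higher with lactate without overlap, and SLC16A1 is lower without overlap. LDHA, LDHB, SLC2A1, ENO1 and PKM overlap. Groups did not overlap for 43.7% of all tested genes.

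Genes that hypoxia-inducible factor is known to activate had the highest median of the lists with at least 8 tested genes. Of 20 tested, 10 had an unadjusted p under 0.05 and were higher, beside 5.8% of all genes, and 0 were lower. In 14 both lactate libraries were above both controls, beside 21.6% of all genes. The median log2 fold change was 0.60, and lay between 0.38 and 0.97 with any 1 library removed. MXI1, a repressor of MYC, had 9.06 and 7.7 CPM in the controls and 20.9 and 16.2 CPM with lactate (1.15 ± 0.24). DDIT4, an inhibitor of mTORC1 signalling, had 90.4 and 49.5 against 146 and 114 CPM (0.89 ± 0.27, and 0.52 without control 2). Both were called with the block, as 2 of the 20 members were in all (0.642% of all genes). BNIP3, a mitophagy receptor, had 263 and 235 against 397 and 400.1 CPM (0.68 ± 0.19), and its relative BNIP3L 102 and 93.7 against 158 and 142 CPM (0.62 ± 0.20). In BNIP3 the lactate libraries differed by far less than the groups. VEGFA (-0.07), ADM (0.03) and ANGPTL4 (-0.17), which the same factor is known to induce, had overlapping groups. Without control 1, 16 of the 20 were higher at an unadjusted p under 0.05, beside 7.92% of all genes in that fit.

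Genes of acid-base control gave no common direction (11 tested, median 0.02). Proton-sensing ASIC1, an acid-gated sodium channel, had 6.19 and 4.09 CPM in the controls and 12.9 and 8.77 CPM with lactate (1.07 ± 0.30). CA9, a surface carbonic anhydrase that is also a hypoxia target, had 9.92 and 4.99 against 11.9 and 16.3 CPM (0.91 ± 0.32, and 0.50 without control 2). The bicarbonate importer gene SLC4A7 had 52.1 and 103 against 146 and 110 CPM (0.72 ± 0.30), and the anion exchanger gene SLC4A2 457 and 415 against 256 and 341 CPM (-0.54 ± 0.20). The 4 genes had an unadjusted p under 0.05, 3 higher and 1 lower of the 11, beside 5.8% and 4.91% of all genes, and none was called. In 3 of the 11 both lactate libraries were above both controls and in 3 below them, beside 21.6% and 22.1% of all genes. SLC4A7 depended on control 1, without which its value was 0.33.

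The amino acid and integrated stress response, in which the factor ATF4 raises amino acid transport and synthesis, was mixed. ATF5, a factor downstream of the same translational control, had 37.6 and 43.5 CPM in the controls and 12.9 and 22.5 CPM with lactate, a log2 fold change of -1.19 ± 0.26 (SE; adjusted p = 0.129, edgeR, and 0.0177 with the block, in a range of 1.02e-05 to 1 over the alternatives). SLC3A2, the heavy chain of amino acid exchangers, had 379.5 and 260.5 against 206 and 188 CPM (-0.70 ± 0.21), and the glutamine transporter gene SLC1A5 839.8 and 570.4 against 486 and 461 CPM (-0.57 ± 0.21). TRIB3, a pseudokinase, had 101 and 91.4 against 61.4 and 76.1 CPM (-0.48). For these 4 genes both lactate libraries were below both controls, and VLDLR (0.68 ± 0.28) was the 1 member higher at an unadjusted p under 0.05. Without control 1 SLC3A2 was at -0.38 and SLC1A5 at -0.25. Over 24 tested members the median was -0.10, with 1 higher and 4 lower at an unadjusted p under 0.05 (5.8% and 4.91% of all genes), and 4 higher and 2 lower without control 1 (7.92% and 4.79%). ATF4 itself had 255 and 248 against 173 and 217 CPM (-0.37), and ASNS 112 and 53.3 against 156 and 68.2 CPM (0.43), with a wide spread in both groups.

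Genes of the secretory pathway and the lysosome had negative medians that depended on control 1, and none was called. In the unfolded protein response 5 of 16 tested genes had an unadjusted p under 0.05 and were lower, beside 4.91% of all genes, with a median of -0.27. MANF, a chaperone-like factor of the endoplasmic reticulum, had 195 and 104 CPM in the controls and 93.9 and 101 CPM with lactate (-0.62 ± 0.27), so control 2 stood at the level of the lactate libraries. Without control 1 the median was -0.00 and 0 of the 16 were lower at an unadjusted p under 0.05. In the list of lysosomal and V-ATPase genes 6 of 24 were lower at an unadjusted p under 0.05, beside 4.91% of all genes, with a median of -0.36. ATP6V0B, a membrane subunit of the proton pump, had 282 and 175 against 118 and 138 CPM (-0.84 ± 0.23), and -0.44 without control 1. Without control 1 that median was -0.07 and 1 of the 24 was lower at an unadjusted p under 0.05.

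Cholesterol synthesis had 7 of 22 tested genes lower at an unadjusted p under 0.05 and 0 higher, beside 4.91% and 5.8% of all genes, with a median of -0.25. EBP, an isomerase late in the pathway, had 182 and 103 CPM in the controls and 78.6 and 78.1 CPM with lactate (-0.86 ± 0.25). NSDHL, a demethylating dehydrogenase, had 99.2 and 54.6 against 46.1 and 43.6 CPM (-0.78 ± 0.26). In both genes the lactate libraries were below both controls, with control 1 the highest, and without it EBP was at -0.37 and NSDHL at -0.27. Without control 1 the median was -0.15 and 1 of the 22 was lower at an unadjusted p under 0.05.

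Ribosome biogenesis had a negative median whichever library was left out. All 18 tested genes had a negative log2 fold change, beside 49.8% of all genes with a positive one, and 6 had an unadjusted p under 0.05. In 11 both lactate libraries were below both controls, beside 22.1% of all genes. The median was -0.37 and lay between -0.52 and -0.23 with any 1 library removed. NOP56, a core protein of the box C/D particles that guide ribosomal RNA methylation, had 241 and 282 CPM in the controls and 145 and 196 CPM with lactate (-0.62 ± 0.21). NOP16 had 52.2 and 55.5 against 25.7 and 40.6 CPM (-0.70 ± 0.23) and RRS1, a ribosome assembly factor, 52.6 and 63.7 against 31.5 and 46.6 CPM (-0.57 ± 0.23). In each, lactate 1 was the lowest library, and without it NOP56 and NOP16 were at -0.40 and RRS1 at -0.31. None of the 18 was called with or without the block. Without control 1, 10 of the 18 were lower at an unadjusted p under 0.05, beside 4.79% of all genes in that fit, and after the length trend was removed 2 of the 18 turned positive and the median was -0.33.

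DNA replication genes were also negative in every tested member, by small amounts. All 22 had a negative log2 fold change, with a median of -0.25 (-0.45 to -0.10 with single libraries left out), 11 had both lactate libraries below both controls (22.1% of all genes), and 2 had an unadjusted p under 0.05, not far from the 4.91% of all genes that were lower at that level. GINS3 had 19.9 and 27.5 CPM in the controls and 13.4 and 18.3 CPM with lactate (-0.58 ± 0.24), and GINS2 69.5 and 76.2 against 45.1 and 60.7 CPM (-0.46 ± 0.21); both belong to the complex that activates the replicative helicase. The helicase subunit gene MCM5 had 239.9 and 234 against 157 and 205 CPM (-0.39) and the sliding clamp gene PCNA 283 and 271 against 190.2 and 237 CPM (-0.38). As for ribosome biogenesis, lactate 1 was the lower of the lactate libraries in these 4 genes, and without it their values lay between -0.36 for GINS3 and -0.20 for MCM5. Mitosis genes had no such direction, with a median of 0.03 over 19 tested genes and 0 at an unadjusted p under 0.05. After the length trend was removed 2 of the 22 replication genes turned positive and their median was -0.23.

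No matrix gene passed the unpaired test. Of 27 tested collagens and matrix genes, 9 were higher and 1 lower at an unadjusted p under 0.05, beside 5.8% and 4.91% of all genes, with a median of 0.26. COL5A1 had 181 and 178 CPM in the controls and 311 and 246 CPM with lactate (0.63 ± 0.20), COL1A1 45.9 and 29.6 against 76.9 and 50.6 CPM (0.76 ± 0.26), and MMP14, a membrane-bound collagenase, 98.8 and 81.8 against 168 and 119.9 CPM (0.67 ± 0.22). In the 3 genes lactate 1 was the highest library, and without it COL1A1 was at 0.43 and MMP14 at 0.42. COL5A2 and MMP3 were called with the block. COL5A2 had 6.14 and 3.56 against 19.6 and 6.84 CPM (1.44), and MMP3, stromelysin, had 22.1 and 8.12 against 5.06 and 4.17 CPM (-1.71 ± 0.44). COL5A2 was at 0.50 without lactate 1, and MMP3 at -0.80 without control 1. The list has long transcripts, with a median effective length of 3197 bases beside 2015 for all tested genes. After the length trend was removed 2 of the 27 were higher and 2 lower at an unadjusted p under 0.05, near the 6.27% and 5.22% of all genes in that fit, with a median of 0.25, and COL5A1 was at 0.34.

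Markers of stellate cells and fibroblasts had a median of 0.83. PDGFRB, the platelet-derived growth factor receptor beta, had 23.1 and 25.4 CPM in the controls and 49.3 and 40.8 CPM with lactate (0.89 ± 0.21), ACTA2, smooth muscle actin, 3.02 and 2.12 against 6.49 and 3.84 CPM (1 ± 0.37), and DCN, decorin, 0.352 and 0.318 against 1.66 and 0.938 CPM (1.93 ± 0.66). With COL1A1, 4 of the 6 tested markers were higher at an unadjusted p under 0.05 and 0 lower, beside 5.8% and 4.91% of all genes, and none was called. Without lactate 1 ACTA2 was at 0.59. ACTA2, DES, PDGFRB, LRAT, DCN and LUM summed to 11.3 and 12.1 TPM in the controls and 29.6 and 20 TPM with lactate, and LRAT, which defines stellate cells, was at 0 to 0.03 TPM. The samples are a cultured line, so these markers are not read here as numbers of stellate cells or fibroblasts. In bulk samples more HLF cells with these transcripts and more RNA per cell cannot be told apart, and neither was tested. Mesenchymal markers had a median of 0.08 over 13 tested genes, 8 of them positive and 5 negative. Of the 13, 2 were higher and 0 lower at an unadjusted p under 0.05, beside 5.8% and 4.91% of all genes. These 2 were ZEB1, with 15.5 and 24.8 against 34.1 and 29 CPM (0.65), and FN1, with 246 and 374 against 449.8 and 446 CPM (0.53). Without control 1, the low library for both, ZEB1 was at 0.36 and FN1 at 0.28.

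Targets of YAP and TEAD, the growth-control factors of the Hippo pathway, had a median of 0.42 over 14 tested genes. In 9 both lactate libraries were above both controls (21.6% of all genes), and 4 were higher and 1 lower at an unadjusted p under 0.05 (5.8% and 4.91%). CCN2 had 47.5 and 40.1 CPM in the controls and 79.7 and 56.3 CPM with lactate (0.64 ± 0.22), CCN1 751 and 595 against 1059.6 and 894 CPM (0.54 ± 0.20), and TGFB2, a transforming growth factor, 33.2 and 30.9 against 75.5 and 40 CPM (0.85 ± 0.27). CRIM1 had 356 and 585 against 769 and 649.8 CPM (0.59 ± 0.23). Without lactate 1 TGFB2 was at 0.33 and CCN2 at 0.37, without control 1 CRIM1 was at 0.29, and without control 1 the median of the list was 0.12. In the fit of 12 libraries the same list had medians of 0.36 in SNU475 and -0.49 in PLC/PRF/5.

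Histone H4 itself is encoded by many near-identical genes, so the deposited estimates for single copies are uncertain. H4C15 had 43.6 and 30.7 CPM in the controls and 5.34 and 13 CPM with lactate (-2.02 ± 0.41; adjusted p = 0.177, edgeR, and 0.136 with the block, in a range of 1.19e-19 to 0.734 over the alternatives). In deposited TPM, which follow each library's effective length, H4C15 had 51.7 and 45 against 30.3 and 33.1, and with effective-length offsets its log2 fold change was -0.81. H4C8 had 13.8 and 5.04 against 3.68 and 4.78 CPM (-1.16 ± 0.43), and without control 1 it was at -0.24. H4C14 had 20.2 and 10.2 against 27.1 and 18.2 CPM (0.57 ± 0.32), with a range of 0.16 to 1.17 over single libraries left out. The fold changes of the copies differed in sign. Enzymes linked to lactyl marks showed little: 0 of 18 tested had an unadjusted p under 0.05, and the median was 0.02. EP300, an acetyltransferase reported to write the mark, had 45.8 and 73.7 against 63.8 and 61.7 CPM (0.07). KAT2A had 45.5 and 53.4 against 32.8 and 40.8 CPM (-0.43), KAT5 53.5 and 49.4 against 40.5 and 36.4 CPM (-0.42), and the deacetylase gene HDAC1 181 and 174 against 126 and 154 CPM (-0.35). These 3 had both lactate libraries below both controls, at adjusted p of 0.485, 0.474 and 0.55 (edgeR). Of the 18, both lactate libraries were above both controls in 3 and below them in 3, beside 21.6% and 22.1% of all genes.

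The 13 mitochondrially encoded mRNAs, all negative with a median of -0.73, followed control 1. MT-CO3, a subunit of cytochrome oxidase, had 12248 CPM in control 1, 3484 in control 2, and 3608 and 3196 CPM with lactate, and 0 of the 13 had an unadjusted p under 0.05. Without control 1 their median was 0.34 and without control 2 it was -1.34. Nuclear-encoded respiratory chain genes had a median of -0.10 over 25 tested, with 0 at an unadjusted p under 0.05.

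**Figure D4:**
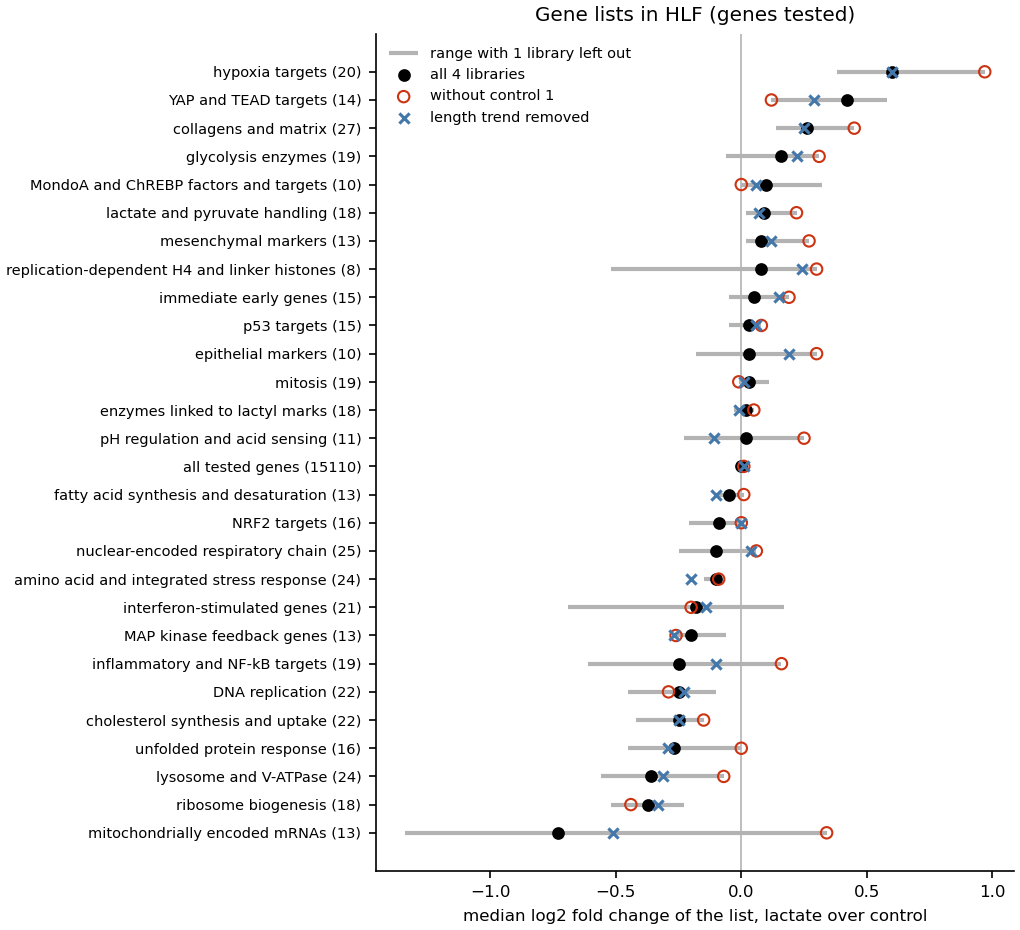
Median log2 fold change (x axis) of each list with at least 8 tested genes and of all tested genes (y axis, number tested in brackets). Black points use all 4 libraries, grey bars span the values with 1 library left out, red circles leave out control 1 and blue crosses follow removal of the length trend; hypoxia targets stay at 0.38 or more, and ribosome biogenesis at -0.23 or less.

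The other lines were used to ask whether the HLF differences recur and whether any is larger than elsewhere. Over 12272 genes the lactate effects of HLF and SNU475 had a Pearson r of 0.34 with 66.1% of signs the same, and those of HLF and PLC/PRF/5 an r of 0.257 with 61.2%, as a description across genes, which are not independent. The 3 lines have their own controls. Of the 12 higher HLF genes, 12 were positive in SNU475 and 8 of these had an unadjusted p under 0.05 there (6.4% of all genes higher), and 11 were positive in PLC/PRF/5 with 7 at that level (4.51%). Of the 12 lower genes, 10 were negative in SNU475 with 6 at that level (5.19%), and 10 were negative in PLC/PRF/5 with 2 at that level (1.42%), where SERPINB2 and DHRS9, the other two, were not detected.

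Values for single genes in the fit of 12 libraries show where they match. TXNIP had 2.57 ± 0.41 in SNU475 and 1.69 ± 0.69 in PLC/PRF/5 on the log2 scale, and C1QL4 0.95 ± 0.31 and 1.79 ± 0.31. LANCL2 had -1.11 ± 0.28 and -1 ± 0.27, close to its HLF value. ATF5 had -1.71 ± 0.26 in SNU475 and -0.28 ± 0.25 in PLC/PRF/5. MYO5B, with -0.12 ± 0.40 and -0.14 ± 0.40, and FAT4, with 0.43 ± 0.52 and -0.44 ± 0.50, were near 0 elsewhere. Lists could differ in sign as well. Cholesterol synthesis had medians of 0.16 in SNU475 and 0.15 in PLC/PRF/5, and the unfolded protein response 0.19 and 0.17, while ribosome biogenesis was at -0.38 and -0.34, and hypoxia targets at 0.61 and 0.74.

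The difference itself was tested as the HLF effect minus the mean of the effects in SNU475 and PLC/PRF/5. edgeR called 0 of 18355 genes (0%), with 498 at an unadjusted p under 0.05 (2.71%), DESeq2 called 2 and limma-voom 1. The edgeR fit therefore showed no gene of HLF to differ in response from the mean of the other lines, while the replicate block called 1 and leaving out the filter on low counts 44. Among protein-coding genes averaging 2 CPM or more in HLF, those with the smallest p were mostly flat in HLF. HSPE1-MOB4, which had the smallest p of all genes but lies below that level, had 45 control and 0 lactate counts in HLF. EFEMP2, an elastic fibre protein, had 12 and 12 CPM in the controls and 11 and 12.1 CPM with lactate (-0.07 ± 0.33), beside 1.15 ± 0.39 in SNU475 and 3.61 ± 0.51 in PLC/PRF/5 (difference -2.45 ± 0.46). PROCR, the protein C receptor, had -0.15 ± 0.22 in HLF beside 0.60 ± 0.22 and 2.17 ± 0.46, and ENG, endoglin, -0.14 ± 0.26 beside 0.43 ± 0.26 and 5.8 ± 1.3. SEMA6B (difference -1.08 ± 0.25) and COL6A2 (-1.01 ± 0.24) followed, and ENSG00000272916 was the 1 of the 6 with a positive difference (3.81 ± 0.87). All 6 had an adjusted p of 1 (edgeR).

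**Figure D5:**
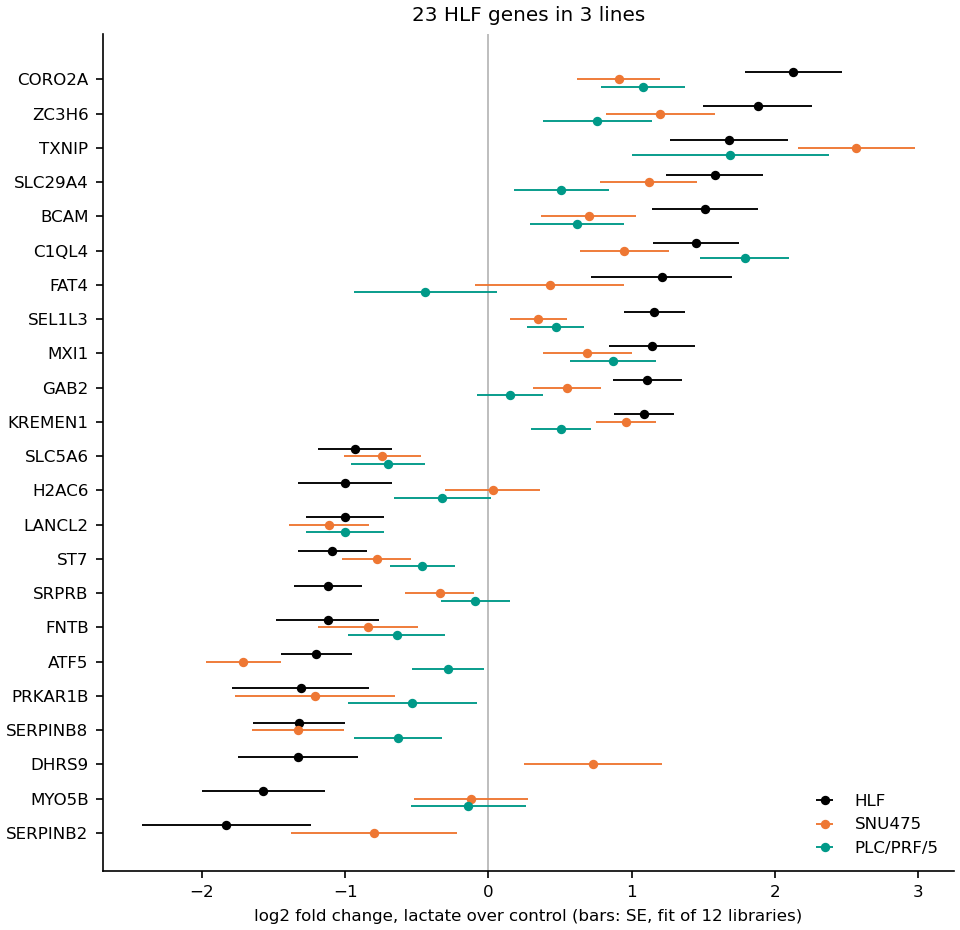
Log2 fold change with lactate (x axis, bars SE, edgeR fit of 12 libraries) of 11 of the 12 higher and the 12 lower HLF genes (y axis) in HLF, SNU475 and PLC/PRF/5; SERPINB2 and DHRS9 have no point in PLC/PRF/5, where their fitted value is 0 with no error. All 11 higher genes drawn are positive in SNU475, and among them FAT4 alone is negative in PLC/PRF/5.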

How the data were processed

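Total RNA was extracted with TRIzol and made into libraries with a directional kit, per the labels' protocols. Tools listed in the submitters' processing notes, with no version, are FastQC, STAR, RSEM and DESeq2. The builds listed there, GRCm38 and mm10, are of mouse, whereas the 62757 genes per table have human Ensembl identifiers. No source used here gives the human build or the strand setting. The authors deposited expected counts (estimated counts that need not be whole), TPM and effective lengths per gene, per the file headers. Expected counts were rounded, 47 pseudoautosomal Y rows were added to their X copies, and genes failing the default filterByExpr rule by group were removed.

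The main test was edgeR 4.0.16 (R 4.3.3; robust quasi-likelihood, TMM scaling, Benjamini-Hochberg over all tested genes, called at 0.05) on the 4 HLF libraries, with 2 residual degrees of freedom. The comparison with the other lines used all 12 libraries as 6 groups. CPM are on TMM-scaled sizes, and errors are SE of the log2 fold change. TPM were used only for marker levels and, beside CPM, for H4C15. Alternatives were DESeq2 1.42.0, limma-voom (limma 3.58.1), other scalings, filters and offsets, each library left out, a replicate block, and, chosen after seeing the data, a lowess length trend removed per library. The fits were also run on simulated data as a check of the code, and no result above rests on that check. Same-numbered libraries deviated together (r = 0.151 in HLF, 0.604 in SNU475, 0.354 in PLC/PRF/5, each over the limit of 0.1). The replicate block counts them as paired, and the main test does not. In HLF this pairing is weak. Control 1 and lactate 1 had the lowest Pearson r of any pair of HLF libraries (0.968) and the largest SD of log2 differences (0.68). Effective length was related to control 2 minus control 1 with a Spearman rho of 0.495, and to lactate 2 minus lactate 1 with one of -0.271. The replicate numbers come from the titles, no label says what they share, and the PLC/PRF/5 libraries numbered 2 carry 3 in the deposited names.

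The comparison, the 33 gene lists (553 symbols, 476 tested) and the rule for named genes were chosen with earlier results of these data known, so no list has a p of its own. The rule names called genes, the 12 higher and 12 lower protein-coding genes described, up to 4 members per list and a fixed set of lactate, glycolysis and histone genes. It also names the 6 protein-coding genes averaging 2 CPM or more in HLF with the smallest p of the difference between lines. A few others were named after their values were seen. Of the higher genes 1, and some list members, count in the totals but are not reported here. Counts of 0 are set against a floor of 3 counts.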

Additional observations from a re-analysis of the deposited data

How the results depend on the processing

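The number of genes called for lactate in HLF (1) moved with most settings. It was 4 with RLE size factors, 293 without a filter on low counts, 0 with a mean of at least 2 CPM, 54 with DESeq2, 0 with limma-voom, 97 with the replicate block, 0 with effective-length offsets, 4 with mitochondrially encoded genes left out, 0 with the length trend removed and 0 with all 12 libraries in the fit. With single libraries left out it ran from 2 (without lactate 1) to 1555 (without control 2), with 448 without control 1 and 6 without lactate 2. The number called for the difference from the other lines (0) was 44 without a filter on low counts, 2 with DESeq2, 1 with limma-voom and 1 with the replicate block, and 0 with every library left out in turn. The cause was not tested. The difference in the mitochondrially encoded share of counts, HLF lactate minus control in percentage points, ran from -4.81 to 1.32 with single libraries left out, and was positive without control 1.

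Of 1521 fold changes of 109 named genes under the alternatives, 23 reversed. With single libraries left out the log2 fold change ran from -0.09 to 0.36 for LDHA, -0.47 to 0.04 for LDHB, -0.27 to 0.12 for ENO1, -0.29 to 0.09 for PKM, -0.19 to 0.71 for SLC2A1, -0.21 to 0.45 for EP300, -0.14 to 0.02 for EFEMP2, -0.37 to 0.12 for PROCR, -0.37 to 0.16 for ENG, -0.34 to 1.19 for ANG, -0.33 to 0.24 for VEGFA, -0.16 to 0.27 for ADM, -0.75 to 0.83 for ANGPTL4 and -0.28 to 1.09 for ASNS. In the fit with the length trend removed, chosen after seeing the data, the log2 fold change was 0.02 for ENO1, -0.15 for EP300 and 0.07 for EFEMP2. In the fit with effective-length offsets, the log2 fold change was 0.02 for EFEMP2. In the fit with limma-voom, the log2 fold change was 0.03 for ANGPTL4. In the fit with the replicate block, the log2 fold change was 0.02 for ANGPTL4. The cause was not tested. HSPE1-MOB4 was called with the replicate block (adjusted p = 0.0192, edgeR, against 0.0968 in the unpaired test). Apart from this gene, the block changed no other call among the named genes than those stated with them. With 2 libraries a group, an exact permutation test of a single value cannot go below 0.333, so each such call rests on the spread that edgeR shares across genes.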

Other observations

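Among the 97 genes called with the replicate block were several outside the lists, named here after their values were seen. The circadian output factor gene DBP had 19.5 and 13.5 CPM in the controls and 47.1 and 27.7 CPM with lactate (log2 fold change 1.18 ± 0.28). KLF9, a factor induced by glucocorticoids, had 8.66 and 8.6 against 18.4 and 16.6 CPM (1.02 ± 0.22). On the log2 scale it was at 2.40 in SNU475 and at 0.47 ± 0.50 in PLC/PRF/5. DNMT3A, a de novo DNA methyltransferase, had 2.82 and 2.34 against 8.93 and 5.58 CPM (1.49 ± 0.34). RHOB, an endosomal small GTPase, had 41.5 and 40.4 against 73.9 and 85.5 CPM (0.96 ± 0.20), and LRP1, an endocytic receptor, 78.3 and 78.4 against 203 and 129.8 CPM (1.09 ± 0.23). In these 5 genes the controls were closer to each other than to either lactate library. ATAD3B, a mitochondrial ATPase, was lower, with 67.7 and 69.4 against 23.7 and 43.4 CPM (-1.03 ± 0.26). Without lactate 1 DBP was at 0.75 and ATAD3B at -0.65. Of the 97, 80 had the same sign in SNU475 and 81 in PLC/PRF/5, beside 66.1% and 61.2% of the 12272 genes averaging 2 CPM or more. Some of the 97 had no usable value in another line, such as SERPINB2 and MMP3, whose fitted value in PLC/PRF/5 is 0.

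Metallothioneins, which bind zinc and copper, were lower in the 3 members tested, with a median of -0.67. The list has short transcripts, with a median effective length of 153 bases beside 2015 for all tested genes. After the length trend was removed the median was -0.51. MT2A had 544 and 482 CPM in the controls and 293 and 349.5 CPM with lactate (-0.67 ± 0.19), and MT1E 102 and 86.8 against 48.3 and 59.4 CPM (-0.81 ± 0.21). Neither was called, with or without the block. The early response gene EGR1 had 5.94 and 2.44 against 11.7 and 8.58 CPM (1.27 ± 0.38) and was called with the block, but stood at 0.76 without control 2 and 2.07 without control 1. CDH1, E-cadherin, was scarce, with 0.352 and 0.265 against 1.93 and 1.36 CPM (2.39 ± 0.63). The 10 tested epithelial markers, CDH1 among them, had a median of 0.03, with 5 positive and 5 negative. In 2 of the 10 both lactate libraries were above both controls and in 3 below them, beside 21.6% and 22.1% of all genes. Inflammatory targets had a median of -0.25 that ran from -0.61 to 0.16 with single libraries left out, and interferon-stimulated genes one of -0.18 that ran from -0.69 to 0.17, so neither had a stable sign.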
